A study of Mus musculus with 6 samples.

Results

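The Fc receptor genes described here are Fcgr1, Fcgr3, Fcgr4, Fcgr2b, Fcer1g, Syk and Fcrls, taken by gene symbol as 7 of the 15168 genes in a table of wound macrophage RNA. Macrophages were sorted as CD45+ CD11b+ F4/80+ CD64+ cells from full-thickness dorsal skin wounds on Day 3, and their RNA was sequenced in bulk. The mice were wild-type C57BL/6J females, with 3 samples (sets A, B and C) per age. They were wounded under isoflurane, with buprenorphine for pain relief, and the study states no other treatment. Each sample was labelled as young at 12 weeks or aged at 24 months, whereas the general protocols of the study state age ranges for both groups. The labels do not say whether each sample came from its own mouse, so p-values measure only the spread between these samples. CD64 is the protein made from Fcgr1, so 1 of the 7 genes also served to choose the cells, and no surface marker of neutrophils was used to exclude them.

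Fc gamma receptors bind the constant part of IgG and let a macrophage take up antibody-coated microbes and debris. Activating receptors signal through a paired chain that carries an ITAM (immunoreceptor tyrosine-based activation motif), whereas the inhibitory receptor carries an ITIM (the inhibitory counterpart) in its own tail and dampens that signal by recruiting phosphatases. In mice Fcgr1 (CD64) encodes the high-affinity activating receptor, Fcgr3 (CD16) a low-affinity one and Fcgr4 (CD16-2) one of intermediate affinity. Fcgr2b (CD32B) encodes the inhibitory receptor, Fcer1g the ITAM chain that the activating receptors share, and Syk the tyrosine kinase that docks on phosphorylated ITAMs. Fcrls encodes an Fc receptor-like scavenger receptor that is best known as a marker of microglia, the resident macrophages of the brain.

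The 4 genes of the Fc receptor cluster lie on chromosome 1 of the mouse genome (GRCm38/mm10, GENCODE M21). Fcgr2b spans positions 170958617 to 170976547 on the minus strand, Fcgr4 171018920 to 171029761 on the plus strand, Fcgr3 171051174 to 171064935 on the minus strand and Fcer1g 171229572 to 171234365 on the minus strand. Fcgr2b and Fcgr4 are 42372 bases apart, Fcgr4 and Fcgr3 21412 bases, and Fcgr3 and Fcer1g 164636 bases. Fcgr1 lies on chromosome 3 (96282909 to 96293969, minus strand), as does Fcrls (87250758 to 87263738, minus strand), and Syk on chromosome 13 (52583173 to 52648792, plus strand). Fcgr3 and Fcgr2b share sequence. Of the 1298 windows of 50 bases in the longest coding transcript of Fcgr3, 166 (12.8%) also occur in Fcgr2b. The longest common run was 129 bases, shorter than the reads of the study, so a full-length read could not lie wholly within it. Whether any reads were counted for the wrong gene of the pair was not tested. Of the 3495 windows of Fcgr2b, 436 (12.5%) occur in some other gene, 166 of them in Fcgr3. The other 5 members shared no such window with another gene.

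Promoters are shown for the 4 IgG receptors and Fcrls, which were read in the same sorted cells, and no test compared these genes with each other. Each runs from 250 bases before to 50 bases after the start site, reads 5′ to 3′ on the gene's strand and comes from RefSeq (GRCm38.p6). Capitals mark matches, on either strand, to the PU.1 core GAGGAA, the interferon-gamma activated site TTCNNNGAA or the interferon response core GAAANNGAA.

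Fcgr1 (chr3:96293920-96294219, minus strand): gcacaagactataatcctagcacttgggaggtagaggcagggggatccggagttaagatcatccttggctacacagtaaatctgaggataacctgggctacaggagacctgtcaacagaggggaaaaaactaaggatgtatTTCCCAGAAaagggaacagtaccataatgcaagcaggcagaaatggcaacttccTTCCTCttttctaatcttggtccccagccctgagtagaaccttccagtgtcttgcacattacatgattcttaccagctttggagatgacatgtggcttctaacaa
Fcgr3 (chr1:171059345-171059644, minus strand): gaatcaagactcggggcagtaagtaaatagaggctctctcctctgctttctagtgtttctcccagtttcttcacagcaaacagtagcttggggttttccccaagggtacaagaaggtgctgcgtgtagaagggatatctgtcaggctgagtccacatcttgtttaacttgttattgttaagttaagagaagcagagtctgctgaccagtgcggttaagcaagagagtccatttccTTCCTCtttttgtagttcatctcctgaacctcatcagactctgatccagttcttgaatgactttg
Fcgr4 (chr1:171018676-171018975, plus strand): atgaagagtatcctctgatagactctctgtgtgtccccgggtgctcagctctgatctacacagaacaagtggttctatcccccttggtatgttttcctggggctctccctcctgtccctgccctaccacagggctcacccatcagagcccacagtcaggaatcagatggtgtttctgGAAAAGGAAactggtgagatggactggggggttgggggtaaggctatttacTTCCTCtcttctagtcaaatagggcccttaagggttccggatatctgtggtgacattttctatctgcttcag
Fcgr2b (chr1:170976022-170976321, minus strand): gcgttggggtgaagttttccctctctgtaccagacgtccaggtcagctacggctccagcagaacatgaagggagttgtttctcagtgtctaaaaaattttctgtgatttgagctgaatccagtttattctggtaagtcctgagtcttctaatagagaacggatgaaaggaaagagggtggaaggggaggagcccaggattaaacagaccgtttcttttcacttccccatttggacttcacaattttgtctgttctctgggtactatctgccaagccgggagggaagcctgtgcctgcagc
Fcrls (chr3:87263475-87263774, minus strand): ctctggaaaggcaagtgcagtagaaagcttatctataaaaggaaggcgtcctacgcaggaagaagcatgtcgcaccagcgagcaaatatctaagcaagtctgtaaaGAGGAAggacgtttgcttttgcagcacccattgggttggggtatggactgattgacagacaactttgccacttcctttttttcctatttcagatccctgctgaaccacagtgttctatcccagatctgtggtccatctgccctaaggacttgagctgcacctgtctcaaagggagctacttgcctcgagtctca

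PU.1 is a transcription factor of the myeloid lineage. Its core was present in the windows of Fcgr1 (beginning 55 bases before the start), Fcgr3 (15 bases), Fcgr4 (22 bases) and Fcrls (144 bases), and in none of the Fcgr2b window. Over the 7 members, 6 of 9 windows held it, since Fcgr3 and Syk have more than one annotated start and the Fcgr3 windows overlap and hold the same match, against 28.3% of 32817 mouse promoters of the same length. The site TTCCCAGAA in the Fcgr1 window begins 109 bases before the start, and that motif occurs in 8.29% of all promoters. The interferon response core GAAAAGGAA in the Fcgr4 window begins 73 bases before the start, and 8.55% of all promoters hold that motif. No marked match overlapped another motif, and the AP-1 motif TGANTCA, present in 7.81% of promoters, was in none of the 9 windows. These matches describe the letters of the windows only.

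Libraries held 15270103 to 17927483 expected counts (read counts per gene that the authors' software estimated), and levels are given as CPM, counts scaled to 1000000 per library with edgeR's TMM factors. All 7 members passed the filter on low counts, among 11878 tested genes whose median log2 fold change, aged against young, was -0.02. Of the tested genes, 17.7% had an adjusted p under 0.05 (quasi-likelihood test of edgeR, adjusted by Benjamini-Hochberg), made up of 9.73% of all tested genes that were higher in aged samples and 7.97% that were lower. Among the members 2 of 7 passed, Syk higher and Fcrls lower. Both also changed over 2-fold, as did 8.79% of all tested genes (4.59% higher and 4.2% lower). Groups did not overlap for 4 members (Fcgr1, Fcgr3 and Syk higher in aged samples, Fcrls lower), against 38.2% of all tested genes (19.2% higher and 19% lower). In bulk RNA, fewer cells of a type and less RNA per cell cannot be told apart. All adjusted p-values below come from the same edgeR test over all tested genes unless another tool is named.

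**Figure D1:**
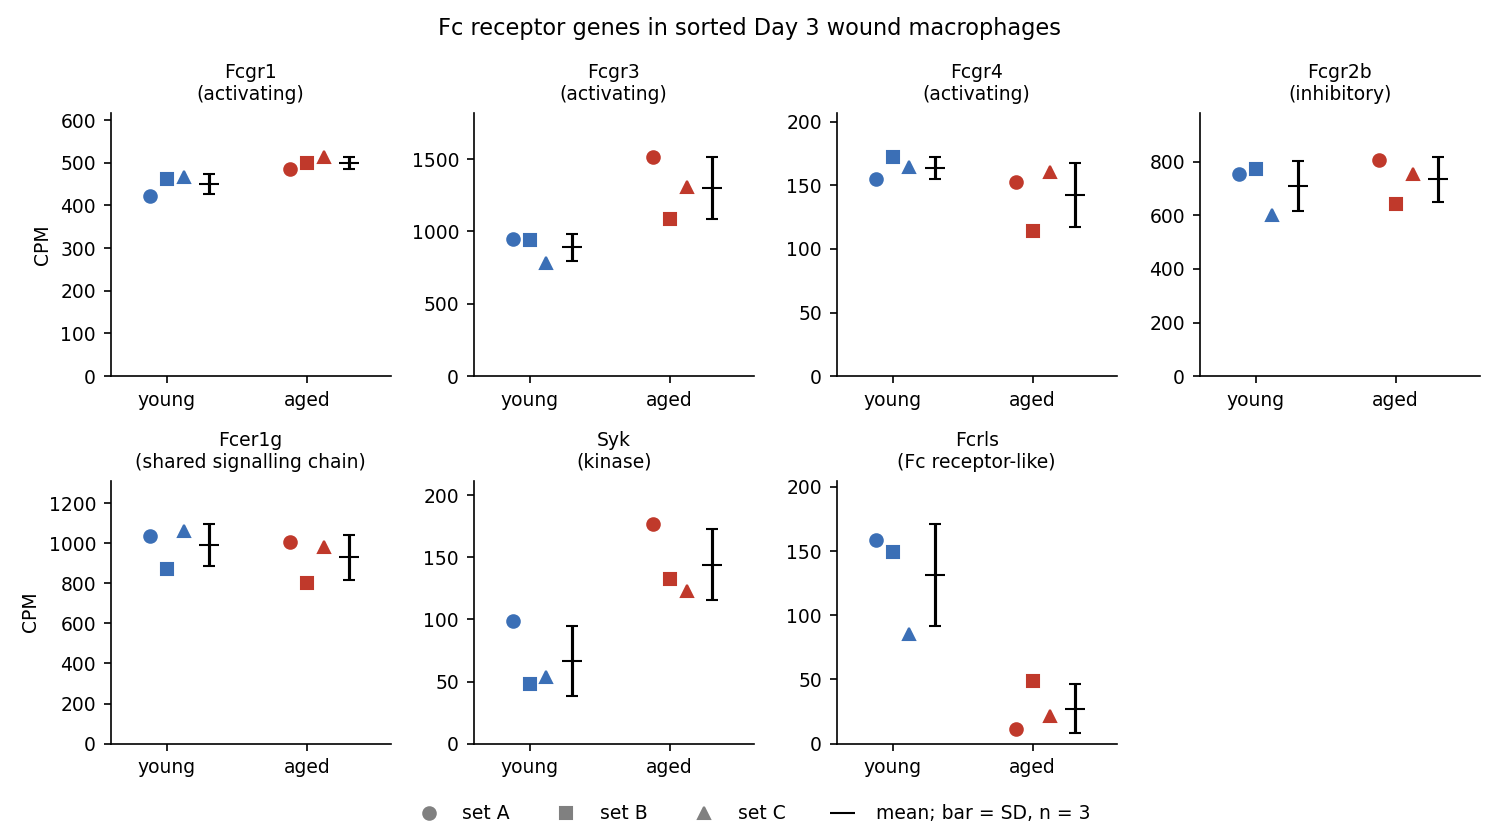
Level of each member in CPM (vertical axis, starting at 0) in the 3 young (blue) and 3 aged (red) samples, with marker shape giving the set letter and black bars the mean ± SD. Syk and Fcgr3 sit higher in every aged sample, Fcrls sits lower in every aged sample, and the groups overlap for Fcgr4, Fcgr2b and Fcer1g.

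Among the activating receptors, Fcgr3 was the one with the largest difference between the ages. It stood at 948, 939 and 780.2 CPM in young A, B and C and at 1513, 1084 and 1305 CPM in aged A, B and C. Every aged sample lay above every young sample, with aged A highest and young C lowest. The mean was 889 ± 94.3 CPM in the young and 1301 ± 214 CPM in aged samples (SD, n = 3), a log2 fold change of 0.55 (SE 0.19, 95% interval 0.13 to 0.97). The adjusted p was 0.0674, above the threshold. DESeq2 gave 0.0241 and limma-voom with quality weights 0.0143, so the call for Fcgr3 depends on the tool, and without aged B the edgeR value was 0.0482.

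Fcgr1, whose protein was part of the sort, stood at 422, 461 and 467 CPM in young samples and at 486, 499 and 514 CPM in aged samples. The groups did not overlap, but the gap was narrow and the log2 fold change was 0.15 (SE 0.15, interval -0.19 to 0.49, adjusted p 0.520). Fcgr4 stood at 155, 172 and 164 CPM in young samples and at 153, 114 and 161 CPM in aged samples. Aged B was the lowest and the groups overlapped, with a log2 fold change of -0.20 (SE 0.17, interval -0.59 to 0.18, adjusted p 0.444). That value was -0.050 without aged B and -0.29 without aged C. These intervals leave room for changes of either sign in both genes.

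The inhibitory receptor Fcgr2b stood at 755, 773 and 603 CPM in young samples and at 806, 642 and 754 CPM in aged samples. The ranges lay almost on top of each other, with young C and aged B low within their groups. Its log2 fold change was 0.05 (SE 0.18, interval -0.35 to 0.44, adjusted p 0.878), and its sign turned without young C (-0.058) or without aged A (-0.023). By Pearson's r of log2 CPM over the 6 samples, Arid5a (0.96), Odf2 (0.95), Gm12183 (0.95), Arhgap17 (0.95) and Azi2 (0.94) followed Fcgr2b most closely among 6587 genes with a mean of at least 10 CPM. These genes share libraries and scaling with it, and none of them passed the test between the ages.

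Fcer1g, the shared ITAM chain, stood at 1036, 871 and 1063 CPM in young samples and at 1008, 800.2 and 981 CPM in aged samples. The groups overlapped, with the B sample lowest at both ages. The log2 fold change was -0.09 (SE 0.18, interval -0.48 to 0.30, adjusted p 0.750), and it was 0.020 without aged B. Tyrobp (DAP12), the other common ITAM chain of myeloid cells, had a log2 fold change of -0.09 (SE 0.17, adjusted p 0.748).

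Syk rose in aged samples. It stood at 98.7, 47.8 and 53.3 CPM in young A, B and C and at 177, 133 and 123 CPM in aged A, B and C. No aged sample fell within the young range, and set A was the highest at both ages. The means were 66.6 ± 27.9 and 144 ± 28.5 CPM (SD, n = 3), a 2.16-fold rise (log2 1.11, SE 0.27, interval 0.51 to 1.72, adjusted p 0.0237). Leaving out a sample kept the direction, with log2 fold changes of 0.93 to 1.52, but the adjusted p was 0.0861 without young B, 0.111 without young C, 0.0587 without aged A and 0.0543 without aged C.

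Fcrls fell in aged samples. It stood at 158, 149 and 85.6 CPM in young A, B and C and at 11.6, 48.6 and 21.5 CPM in aged A, B and C. The lowest young sample was 1.76 times the highest aged one, and the aged samples themselves spread 4.20-fold. The means were 131 ± 39.7 and 27.2 ± 19.2 CPM (SD, n = 3), so that Fcrls was 4.81-fold lower in aged samples by the fit (log2 -2.27, SE 0.44, interval -3.25 to -1.29, adjusted p 0.0119). Without aged B, the aged sample with the most Fcrls, the log2 fold change was -2.97, and without aged C the adjusted p was 0.0534.

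**Figure D2:**
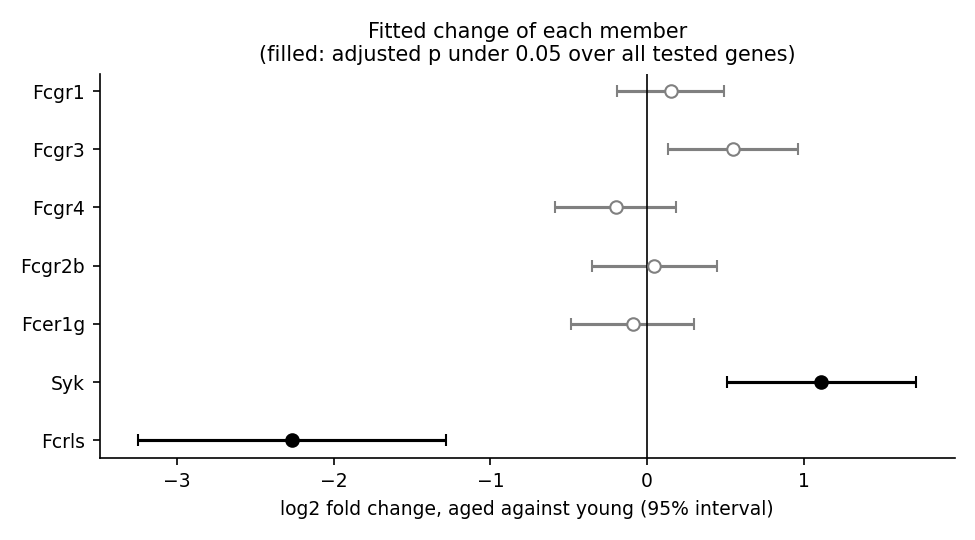
Fitted log2 fold change of each member, aged against young (horizontal axis), with its 95% interval as a bar, and filled points for an adjusted p under 0.05. Syk at 1.11 and Fcrls at -2.27 are filled, the interval of Fcgr3 lies above 0 although its adjusted p was 0.0674, and the other 4 intervals span 0.

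To compare the members with each other, counts were divided by the median coding transcript length and scaled to a fixed total per sample (a TPM-like level per length). Fcer1g was the most abundant at both ages, with 1870 ± 159 in young and 1612 ± 116 in aged samples. Fcgr3 followed with 866 ± 138 and 1155 ± 140.5, then Fcgr2b with 604 ± 111 and 568 ± 37.9. Fcgr1 (223 ± 11.8 and 228 ± 13.6) stood above Fcgr4 (167 ± 13 and 133 ± 17.3). In young samples Fcrls (115 ± 39.8) ranked above Syk (16.8 ± 7.57), while in aged samples Syk (33.2 ± 5.93) had the higher mean and its range overlapped that of Fcrls (22.2 ± 16.8). Every other pair of neighbours in this order had separate ranges within each age. With the longest transcript of each gene the order of the means was the same, but the ranges of Fcgr2b and Fcgr1 then overlapped at both ages (means of 372 and 321 in young and of 355 and 332 in aged samples).

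Relative to the inhibitory receptor, the activating receptors together were higher in aged samples, and among single receptors the ratio of Fcgr3 alone did not overlap between the ages. The level of Fcgr3 per length was 1.44, 1.39 and 1.49 times that of Fcgr2b in young A, B and C and 2.16, 1.94 and 1.99 times in aged A, B and C. The 2 groups were far apart beside the spread within either, at 1.44 ± 0.0460 and 2.03 ± 0.114 (SD, n = 3), a log2 difference of 0.49. The ratio of the summed activating receptors to Fcgr2b was 2.02, 2.01 and 2.27 in young and 2.74, 2.61 and 2.64 in aged samples, means of 2.10 ± 0.148 and 2.66 ± 0.0668 and a log2 difference of 0.35. That difference was 0.32 from CPM without length scaling, 0.34 with longest transcripts, and between 0.32 and 0.40 when any 1 sample was left out. With the longest transcripts the ratio itself was 4.84 in young and 6.13 in aged samples, since the longest transcript of Fcgr2b is much longer than its median one. Any reads exchanged between Fcgr3 and Fcgr2b would enter this ratio directly, and their part in it was not tested.

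The ratio of Fcgr1 to Fcgr2b overlapped between the ages (0.378 ± 0.0676 and 0.404 ± 0.0511), as did that of Fcgr4 to Fcgr2b (0.282 ± 0.0425 and 0.234 ± 0.0220). Fcgr3 was 5.17 ± 0.654 times Fcgr4 in young and 8.72 ± 0.892 times in aged samples, without overlap. As a share of the 4 IgG receptors per length, Fcgr3 made up 46.5% ± 1.17 in young and 55.3% ± 2.08 in aged samples, and Fcgr2b 32.3% ± 1.5 and 27.3% ± 0.494. With the longest transcripts these shares were 56.6% and 65.1% for Fcgr3 and 17.2% and 14.0% for Fcgr2b. Fcgr4 went from 9.07% ± 0.943 to 6.38% ± 0.605. Summed over the 4 receptors, the level per length averaged 1860 ± 264 for young and 2084 ± 176 for aged samples, with overlapping groups. Fcer1g, which itself did not pass the test, stood at 1.51 ± 0.243 times the activating sum in young and 1.06 ± 0.0396 times in aged samples, without overlap, and Fcgr3 is the largest part of that sum. These ratios are descriptions and carry no test.

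**Figure D3:**
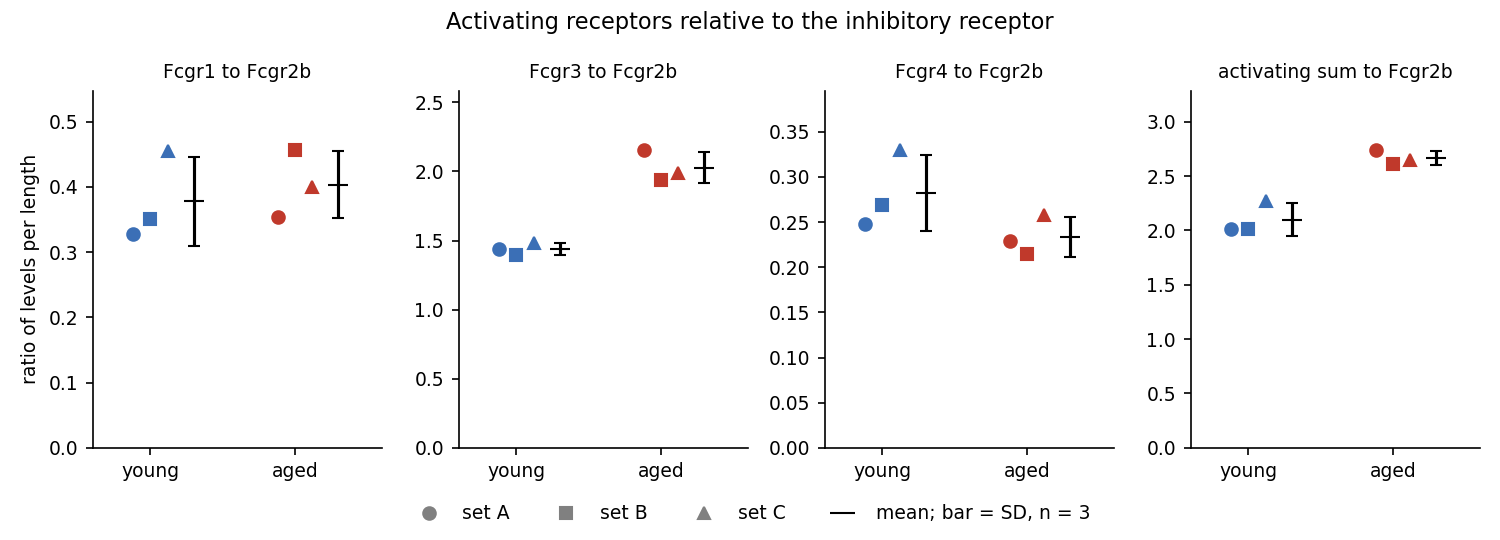
Ratio of the level per length of Fcgr1, Fcgr3, Fcgr4 and their sum to that of Fcgr2b (vertical axes, starting at 0) in young (blue) and aged (red) samples, with black bars for the mean ± SD, n = 3. The Fcgr3 ratio lies between 1.39 and 1.49 in young and between 1.94 and 2.16 in aged samples, and the ratios of Fcgr1 and Fcgr4 overlap.

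Of the genes that carry the ITAM signal, 9 of 36 tested were higher in aged samples and 2 lower, with a list median of 0.36 beside -0.02 over all tested genes. Malt1 (log2 1.31, SE 0.32, adjusted p 0.0234), the protease of the CARD9 and BCL10 complex, rose most among those that passed, and Pik3r5 (1.14, SE 0.22, adjusted p 0.0114), a regulatory subunit of phosphoinositide 3-kinase gamma, also rose. So did Lcp2 (SLP-76, an adaptor phosphorylated by Syk, 0.79), Vav3 (0.96) and Prkcd (0.94). Plcg1 (-1.63) and the adaptor Gab3 (-1.52) fell, from levels under 20 CPM. Plcg1 stood at 1.71, 2.41 and 1.59 CPM in young and at 0.841, 0.382 and 0.618 CPM in aged samples. It rested on few counts in aged samples and passed the count filter through the young ones, so its fold change is imprecise. Lyn, a Src-family kinase that phosphorylates ITAMs and ITIMs, was higher in every aged sample than in any young one (0.60, adjusted p 0.0541), whereas Fgr of the same family (-0.07, adjusted p 0.847) overlapped. The 9 higher calls became 5 without young B, 0 without young C and 2 without aged C. They became 12 without young A or with limma-voom, and 11 with DESeq2 or with the set letter as a block. The 2 lower calls became 1 without young A or with at least 10 counts in every sample, which Plcg1 does not reach. They became 0 when any other sample was left out, with no filter on low counts or with the set letter as a block.

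On the inhibitory side, 5 of 18 tested genes of ITIM signalling were higher and 1 lower, with a list median of 0.26. Ptpn6, the phosphatase SHP-1, fell (110, 271 and 214 CPM in young against 89.5, 93.6 and 98.2 CPM in aged samples, log2 -1.08, SE 0.28, adjusted p 0.0270). Young A lay close to the aged samples and the other young samples far above them. Inpp5d, the lipid phosphatase SHIP1 through which Fcgr2b mainly acts, had a log2 fold change of 0.17 (SE 0.16, adjusted p 0.503). Socs1 (1.65, adjusted p 0.0172), a brake on cytokine receptors, and the ubiquitin ligase Cblb (1.12, adjusted p 0.0139) rose. The 5 higher calls became 1 without young B, 0 without young C or aged C, and 7 without young A or with limma-voom. The call of Ptpn6 was lost when any sample other than young A was left out.

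In a list of other ITIM receptors and related surface receptors of myeloid cells, 3 of 20 tested were higher and 6 lower, with a list median of -0.10. Clec12a, a C-type lectin that senses dead cells, went from 165, 196 and 216 CPM in young to 60.8, 49.4 and 62.7 CPM in aged samples (log2 -1.74, SE 0.18, adjusted p 0.00127). The groups lay far apart. Cd72 (-1.76, adjusted p 0.00223), Siglec1 (-1.31, adjusted p 0.0222) and Clec2d (-1.33, adjusted p 0.0471) fell as well, and Pecam1 (1.69, adjusted p 0.00220) rose. Of the 6 lower genes, Clec12a, Cd72 and Lair1 (-1.06) are known to carry an ITIM, whereas Siglec1, Ly9 (-0.90) and Clec2d are not classical ITIM receptors. Pirb, an ITIM receptor for MHC class I, had a value of -0.05 (adjusted p 0.891). The 3 higher calls became 1 without young C, aged A or aged C. The 6 lower calls became 2 without young B, 2 without young C, 3 without aged A and 2 without aged C.

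Genes of the phagocytic cup and engulfment showed 1 of 41 tested past the threshold (list median 0.08). The gene was Wipf1, an actin regulator (log2 0.74, SE 0.21, adjusted p 0.0378). It lost its call without young B, young C, aged A or aged C, while DESeq2 called 3 genes of the list higher and limma-voom 6. The others ran from -0.44 (Bin2, a membrane-curving protein, adjusted p 0.259) to 0.62 on the log2 scale.

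Receptors and factors known to set the level of Fc gamma receptors were higher for 14 of the 26 tested genes that are reported here, with a list median of 0.70. Csf2, which encodes the growth factor GM-CSF, stood at 0.277, 0.117 and 0.198 CPM in the young and at 1.82, 3.57 and 1.67 CPM in aged samples (log2 3.52, SE 0.57, adjusted p 0.00623). It rested on few counts in every young sample and passed the count filter through the aged samples alone, so its fold change is imprecise. Csf2rb, the beta chain of its receptor, went from 332, 128 and 134 CPM to 550.2, 459 and 502 CPM (1.35, adjusted p 0.0240). C5ar1 (1.10, adjusted p 0.0208), the complement C5a receptor known to shift the balance towards activating receptors, rose, as did C5ar2 (1.28, adjusted p 0.0267), another receptor of C5a, and the kinase Jak2 (1.57, adjusted p 0.00195). Il4ra (0.76, adjusted p 0.0272) and Tgfb1 (1.0, adjusted p 0.0149), which belong to signals known to favour the inhibitory receptor, also rose. Cebpa, a myeloid transcription factor, had the lowest value of the genes reported here (-0.53, adjusted p 0.124), and Spi1, which encodes PU.1, had a value of 0.15 (SE 0.17, adjusted p 0.555). The 14 higher calls became 4 without young B, 2 without young C and 3 without aged C. With at least 10 counts in every sample, which Csf2 does not reach, 14 genes were called higher.

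**Figure D4:**
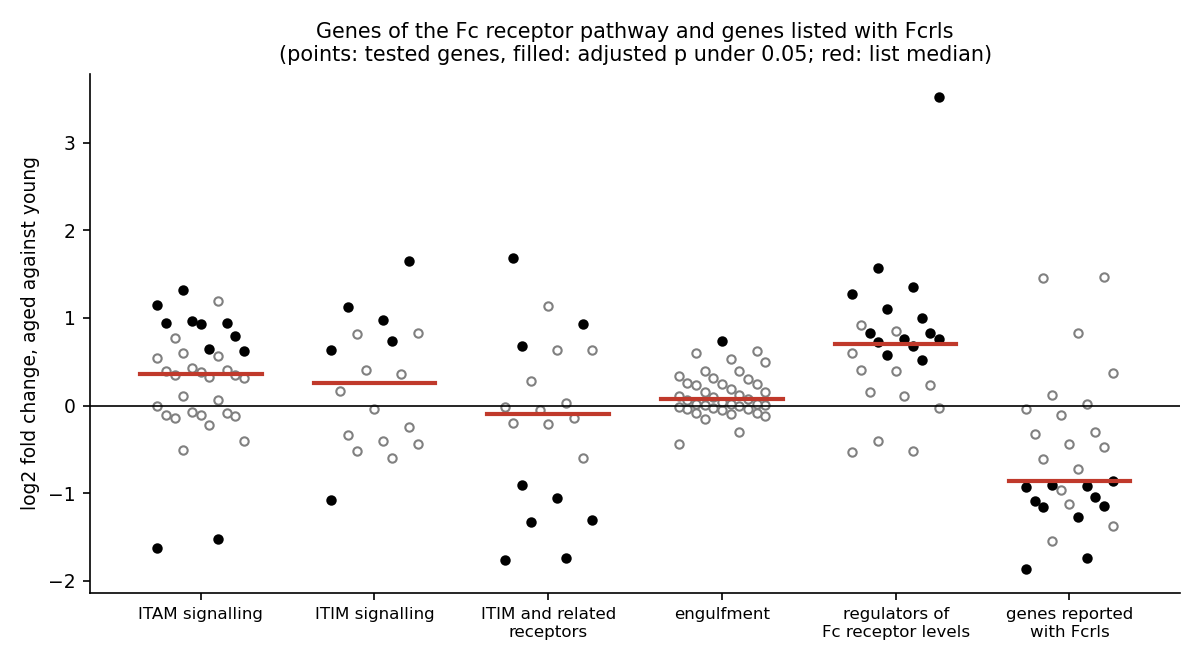
Log2 fold change, aged against young (vertical axis), of the tested genes reported here in 6 lists, with filled points for an adjusted p under 0.05 and red bars for list medians. The regulators of Fc receptor levels have a median of 0.70 and the genes listed with Fcrls one of -0.86, while the median of the engulfment genes is 0.08.

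The genes most like Fcrls over the 6 samples were Igf1 (Pearson's r 0.99), Nfx1 (0.99), C1qa (0.99), Pltp (0.98) and C1qc (0.98), again among 6587 genes of 1 set of libraries. Pearson's r does not measure the size of a change. Unlike the others named, Nfx1 did not pass the test between the ages (log2 -0.26, adjusted p 0.299). Igf1, a growth factor made by repair macrophages, stood at 23.1, 23.7 and 16.6 CPM in the young and at 2.73, 12.4 and 4.76 CPM in aged samples. Like Fcrls it was lowest in aged A and, of the aged samples, highest in aged B. A list of genes reported with Fcrls in microglia and resident macrophages had 11 lower among the 29 tested genes that are reported here, with a median of -0.86. The complement genes C1qa (-1.09, adjusted p 0.0130), C1qb (-1.04) and C1qc (-0.92) fell, as did the lipid-sensing receptor Trem2 (-1.27, adjusted p 0.00627), Olfml3 (-1.73, adjusted p 0.00218) and the chemokine receptor Cx3cr1 (-1.87, adjusted p 0.0155). Cd163, a scavenger receptor of resident macrophages, stood at 20.6, 34.8 and 19.6 CPM in the young and at 27.6, 141 and 38.8 CPM in aged samples, so that aged B alone was high (log2 1.46, adjusted p 0.0739). The 11 lower calls became 5 without young B, 2 without young C or aged C, and 16 with the set letter as a block. The list gained 2 higher calls without aged A and 1 with DESeq2 or with the block.

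**Figure D5:**
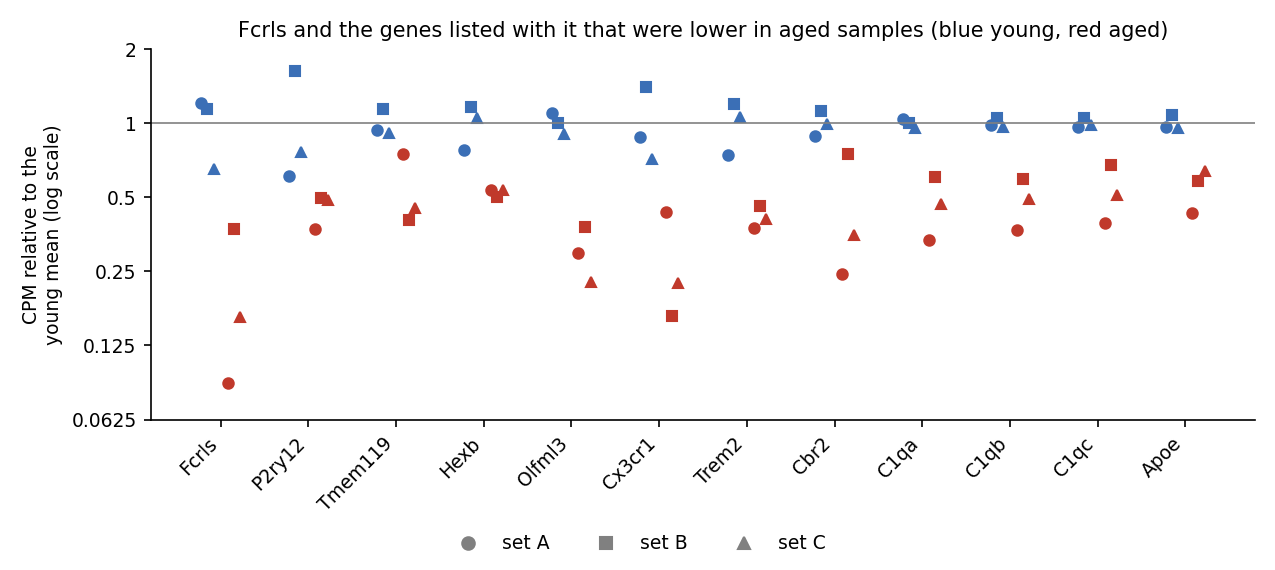
CPM of Fcrls and of the 11 genes of its list that were lower in aged samples, divided by the mean of the young samples (vertical axis, log scale), with young samples in blue, aged samples in red and marker shape giving the set letter. Every aged sample lies below the young samples of the same gene, and in Fcrls, P2ry12, Olfml3, Trem2, Cbr2, C1qa, C1qb and C1qc aged B is the highest aged sample.

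Few genes of immunoglobulin and pentraxin ligands could be tested. Of 14 ligand genes, 2 were tested, and Ighm (the mu heavy chain) fell from 61.3, 145 and 55.8 CPM to 28.7, 20.3 and 36.4 CPM (-1.62, SE 0.36, adjusted p 0.0172). The other was Ptx3, a pentraxin (0.24, SE 0.80, adjusted p 0.862). Of 8 tested receptors outside the members, 1 passed the threshold, and it was higher in aged samples. The list gained 1 lower call without aged A, without aged B, with DESeq2, with at least 10 counts in every sample and with the set letter as a block, and limma-voom called 2 genes higher and 2 lower. Fcrlb, an intracellular Fc receptor-like protein, stood at 12.2, 15.7 and 15.5 CPM in the young and at 32.6, 37.3 and 29.4 CPM in aged samples (1.19, SE 0.18, adjusted p 0.00496). Fcgrt, the neonatal receptor that recycles IgG, had a value of -0.39 (SE 0.37, adjusted p 0.484), and Trim21, a cytosolic antibody receptor, one of -1.02 (SE 0.32, adjusted p 0.0512).

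Markers of other cells that use these receptors were read beside the members. Of 17 tested neutrophil markers 5 were higher, and their summed level ran from 731 to 1243 CPM in young samples and from 947 to 1616 CPM in aged ones. Those higher were Cd177 (log2 1.62, adjusted p 0.0116), Cxcr2 (1.13, adjusted p 0.0340), Prtn3 (1.03, adjusted p 0.0476), Lcn2 (0.99, adjusted p 0.0418) and Retnlg (0.85, adjusted p 0.0393). The defining markers Ly6g (0.05), S100a8 (0.48) and S100a9 (0.20) did not pass, at adjusted p 0.923, 0.244 and 0.700, and Mmp9 had the lowest value (-0.54, adjusted p 0.143). The 5 calls became 1 without young A, aged A or aged C, 2 without young B, 0 without young C and 1 with the set letter as a block.

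Monocyte markers were higher for 5 of 16 tested genes, namely Vcan (2.13), Hp (1.08), Fn1 (0.96), Itgal (1.16) and Ace (2.71, at levels under 3 CPM). The list summed to 2551 to 4726 CPM in young samples and 5052 to 6383 CPM in aged ones. Chil3 was the largest part of that sum in every sample. It stood at 642, 1136 and 1993 CPM in young A, B and C and at 2810, 2586 and 1904 CPM in aged A, B and C. The groups of Chil3 overlapped and it did not pass (0.95, adjusted p 0.0820). Ly6c2 (-0.13, adjusted p 0.818), Ccr2 (-0.16, adjusted p 0.706), Plac8 (-0.02, adjusted p 0.978) and Ms4a4c (-0.88, adjusted p 0.0678), which mark classical monocytes, did not pass. Ace passed the count filter through the aged samples alone, and with at least 10 counts in every sample 4 genes of the list were called higher. The 5 calls became 1 without young C, 3 without young B, aged A or aged C, and 8 with DESeq2.

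The sum for B and plasma cells was 90.2 to 190.1 CPM in young samples and 46.4 to 64.5 CPM in aged ones, with 2 of 5 tested genes lower (Ighm and Cd79b), and Cd79a stood at 0 to 0.573 CPM in all samples. The 2 lower calls became 1 when any sample other than young A was left out, with limma-voom or with the set letter as a block. Of 8 tested mast cell and basophil markers 1 was higher (Hdc, 1.46, adjusted p 0.0164), a call lost without young C or aged C. Cma1 (-1.90), Mcpt4 (-1.43), Cpa3 (-1.40) and Tpsb2 (-1.05) had values of the other sign that did not pass, Cma1, Mcpt4 and Cpa3 stood at 0 in aged B and aged C, and limma-voom and the fit without aged A each called 5 genes of the list lower. Among 5 tested NK and T cell markers Cd4 was lower (-1.76, adjusted p 0.0386), and Nkg7 (-1.80, adjusted p 0.0586) did not pass. Cd4 stood at 2.27, 2.82 and 1.72 CPM in young and at 0.350, 1.15 and 0.494 CPM in aged samples. Both genes rested on few counts in aged samples and passed the count filter through the young ones. The list held no call without young A, without young B or with at least 10 counts in every sample. The extremes of 10 dendritic cell markers, Ccr7 (1.54, adjusted p 0.0860) and Kmo (-1.38, adjusted p 0.0590), did not pass, but 3 genes of that list were called higher and 1 lower without young A, 2 higher and 1 lower with limma-voom, 1 higher and 1 lower with DESeq2, and 2 higher with the set letter as a block. Siglecf (1.25, adjusted p 0.0995) was the higher of 2 tested eosinophil markers and did not pass, though limma-voom called 1 of them. Col1a1 (1.57, adjusted p 0.159) was the highest of 8 tested fibroblast markers and did not pass, though 2 of them were called without aged A. Keratinocyte markers summed to 186 CPM in aged B and to at most 10.02 CPM in the other samples, where Krt14 was under 1 CPM. Both tested keratinocyte markers, Krt14 (8.29, adjusted p 0.0259) and Sfn (2.36, adjusted p 0.0329), were called higher. Krt14 passed the count filter through the aged samples alone, and its value rests on aged B and on young samples at 0 to 0.176 CPM. These 2 calls became 0 without young B, without young C or with limma-voom and 1 without aged A, without aged B or with at least 10 counts in every sample. Of the macrophage markers, Cd14 (1.10, adjusted p 0.0110) and Itgam (CD11b, 0.99, adjusted p 0.00735) rose and Adgre1 (F4/80) fell (-0.69, adjusted p 0.0292), CD11b and F4/80 being part of the sort. Of 11 tested markers of that list 2 were higher and 2 lower (Adgre1 and C1qa), and without young C or aged C 1 was higher and 0 lower, while the lower calls became 1 without young B or aged A and 4 with limma-voom. The part of these cells in the differences of Fcgr3, Syk and Fcrls was not tested.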

How the data were processed

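The 3 young and 3 aged samples were compared from 1 table of expected counts. The authors aligned reads with STAR 2.7.3a to mm10 and deposited expected counts per gene, not normalised, estimated in Partek on Ensembl release 102, and whether strand was used is not given in the sources used here. Fractional counts can move between genes of shared sequence. A second deposited table of the authors' own comparison (fold changes and p-values) was not used.

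Expected counts were rounded and tested in R 4.3.3 with edgeR 4.0.16 (TMM, filterByExpr by age, quasi-likelihood test, Benjamini-Hochberg adjustment over 11878 genes, threshold 0.05), and the code was tested on simulated data. The design had assumed counts. With totals of 15270103 to 17927483 per sample, counting error was small beside the spread between samples for the members. This does not hold for genes at a few counts, such as Csf2 in young samples. Intervals are 95%. Log2 CPM used a prior count of 2. Levels per length used GENCODE M21 transcripts, promoters and motif shares RefSeq GRCm38.p6, with pandas 2.3.3 in Python 3.11.15 and figures matplotlib 3.10.9.

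Alternatives were DESeq2 1.42.0, its size factors in edgeR, no filter, at least 10 counts in every sample, limma 3.58.1 voom with quality weights, the set letter as a block, longest transcripts, CPM ratios and leaving out each sample. The members and the 18 lists (337 genes) were chosen with earlier results of these data known. A few genes of the lists are not reported here and were left out of their counts, medians and figures. Named genes are the members, the 5 most like Fcrls and Fcgr2b, and by rule in each list the extremes and up to 4 in each direction past the threshold and 2-fold, plus Ly6g, S100a8 and S100a9. A few minor marker genes of that rule are given by their list's count only. Other genes were named for their role after their values were seen.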

Additional observations from a re-analysis of the deposited data

How the results depend on the processing

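With 3 samples per age, the calls rested on few libraries. Over the fits that left out 1 sample, log2 fold changes ran from 0.43 to 0.68 for Fcgr3, -0.29 to -0.050 for Fcgr4, -0.06 to 0.15 for Fcgr2b, -0.17 to 0.02 for Fcer1g, 0.93 to 1.52 for Syk and -2.97 to -1.90 for Fcrls. The sign turned for Fcgr2b without young C (-0.058) and without aged A (-0.023), and for Fcer1g without aged B (0.020). Fcgr3 passed the threshold with DESeq2 (0.56, adjusted p 0.0241) and limma-voom (0.61, adjusted p 0.0143) and without aged B. The members past the threshold numbered 0 to 3 in these fits. Over all genes, higher calls numbered 151 to 1574, lower calls 67 to 1128 and calls over 2-fold 213 to 1503, beside 1156, 947 and 1044 with all samples, and the list genes called numbered 13 to 83. The lowest of these counts over all genes and list genes came without young C, and the 0 members without aged C. limma-voom called 1933 genes higher and 1713 lower. With the set letter as a replicate block, the log2 fold change of Fcrls was -2.42 (adjusted p 0.00900), that of Syk 1.17 (adjusted p 0.00832) and that of Fcgr3 0.54 (adjusted p 0.0697), and 1202 genes were called higher and 912 lower. Samples of the same letter did not deviate together in every set (r 0.18, -0.02 and 0.11 for A, B and C over 11878 genes), and the letters may be no more than names. DESeq2 size factors, no filter and a minimum of 10 counts changed no call among the members. The cause of these differences was not tested.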
